A study of Mus musculus with 4 samples.

Results

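Lhx6 lineage interneurons were studied as 1427 nuclei of the mouse hippocampus, drawn from 57350 nuclei in 8 pools. They were chosen by UMIs (unique molecular identifiers, each counting a single captured RNA molecule). A nucleus was kept with at most 20% mitochondrial UMIs, at least 2 UMIs of Gad1 and Gad2 together and at least 3 of these per 10000. It also needed at least 3 UMIs of Lhx6, Nxph1, Sst and Pvalb together, more of these than of Adarb2, Vip and Npas1, and at most 2 of Drd1, Drd2 and Rgs9. Of the 56834 nuclei under the mitochondrial limit, 3130 passed the Gad1 and Gad2 rule and are called Gad nuclei here. Among these, 1201 passed the mirrored rule for Adarb2, Vip and Npas1 (the Adarb2 lineage) and 502 passed neither. The levels of these 12 genes chose the nuclei and are given only as a description.

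Single nuclei had been sequenced 14 h after repeated social defeat (stress) or without it (control), and each pool held the hippocampi of 3 male mice. In the diet experiment, C57BL/6 mice ate chow without drug (Control-Vehicle and Stress-Vehicle) or with PLX5622, a CSF1R antagonist that depletes microglia (Control-PLX5622 and Stress-PLX5622). In the genotype experiment, the mice of the Con-IL-1R1+/+ and the Stress-IL-1R1+/+ pool carried no Cre. The mice of the Con-nIL-1R1-/- and the Stress-nIL-1R1-/- pool lacked the interleukin-1 receptor gene Il1r1 in cells with Vglut2-Cre, which is active in glutamatergic neurons, so interneurons were not its target. All 8 pools were split over the same 4 sublibraries, and no nucleus barcode was shared between pools. Each condition was a single pool. The p-values for stress measure the spread between pools over 4 control and stress pairs, and those for diet and genotype set 1 such pair against another.

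Most cortical and hippocampal GABA neurons arise in the ganglionic eminences of the embryonic forebrain. Those of the medial eminence keep the transcription factor Lhx6 and become parvalbumin (Pvalb) basket and axo-axonic cells, somatostatin (Sst) cells and the Nos1-positive ivy and neurogliaform cells of the hippocampus. Pvalb cells fire fast and inhibit the cell bodies and axon starts of pyramidal neurons, whereas Sst cells inhibit their dendrites. Those of the caudal eminence express Adarb2 and include the Vip cells. Nxph1 encodes neurexophilin 1, a secreted ligand of neurexins.

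The label held for part of the nuclei. Nxph1 was present in 1427 of 1427 members (100%) and gave 96.3% of the UMIs of the 4 lineage genes, and 796 members (55.8%) had Nxph1 as their only lineage gene. An Lhx6 UMI was found in 488 members (34.2%). Sst without Pvalb was found in 86 (6.03%), Pvalb without Sst in 176 (12.3%), both in 3 (0.210%) and neither in 1162 (81.4%). As background, 2279 nuclei with at least 2 UMIs of the glutamatergic marker Slc17a7 and none of Gad1 or Gad2 were used. An Nxph1 UMI was found in 28.3% of these nuclei, Lhx6 in 0.878%, Sst in 0.395% and Pvalb in 0.395%. Their median depth was 8130 UMIs against 5654 in the members, although members were the deeper in Control-PLX5622, Stress-PLX5622 and Stress-Vehicle. The rule itself fixes the higher shares in the members. When each nucleus was thinned to 1000 UMIs, an Sst UMI remained in 1.34% of 1414 members and a Pvalb UMI in 2.12%. By these values the members were Gad nuclei high in Nxph1, most of them without a captured transcript of Sst or Pvalb.

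Some genes outside the rule also differed in level between the lineages, and others did not. Lhx6 stood at 67.8 CPM (UMIs of the gene per 1000000 UMIs of the summed nuclei) in the members, 7.61 in the Adarb2 lineage and 0.896 in the Slc17a7 nuclei. Nxph1 stood at 2636, 673 and 57.8 CPM. Sst stood at 10.2, 1.15 and 0.351 CPM, and Pvalb at 24.1, 3.80 and 0.429 CPM. Adarb2 stood at 332 CPM in the members and 11834 in the Adarb2 lineage, and Vip at 0.550 and 39.4 CPM. Of genes that the rule did not use, Sox6, a transcription factor acting after Lhx6, was at 364 CPM against 50.4 in the Adarb2 lineage. Satb1, which acts in the maturation of Sst cells, was at 165 against 47.0 CPM. Nkx2-1, which specifies the medial eminence in the embryo, was at 1.19 CPM in the members and 0.807 in the Adarb2 lineage, and higher in the members in 3 of 8 pools. Zeb2, a factor in the migration of these cells, was at 889 against 939 CPM, and Dlx1, a factor of both eminences, at 16.05 against 30.7 CPM.

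The start region of Sst is shown because Sst names part of the lineage and its promoter holds a well-known element. Sst lies at chr16:23707321-23711733 on the minus strand of mm39, and Pvalb at chr15:78075314-78091149, also on the minus strand. Windows of 300 bases at the RefSeq starts of both genes, 250 before and 50 after, came from a GRCm38.p6 table and were found once each in mm39. They were searched for the palindromic cAMP response element TGACGTCA. The 250 bases before the start are shown, with the element in capitals. The first sequence lies at chr16:23709595-23709844 and the second, from the more distal of 2 RefSeq starts, at chr15:78090601-78090850.
Sst: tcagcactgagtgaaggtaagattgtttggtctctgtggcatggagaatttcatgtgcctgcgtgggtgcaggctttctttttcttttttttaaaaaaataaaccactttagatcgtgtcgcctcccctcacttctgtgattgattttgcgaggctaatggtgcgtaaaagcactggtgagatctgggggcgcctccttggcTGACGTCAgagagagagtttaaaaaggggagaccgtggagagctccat
Pvalb: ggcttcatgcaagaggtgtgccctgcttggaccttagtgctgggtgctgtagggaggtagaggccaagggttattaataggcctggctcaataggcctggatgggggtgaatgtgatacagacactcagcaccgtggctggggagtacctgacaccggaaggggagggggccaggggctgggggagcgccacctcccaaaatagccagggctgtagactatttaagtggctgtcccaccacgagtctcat
The element begins 48 bases before the Sst start. It is in 588 of 32851 RefSeq windows of 300 bases (1.79%) and in none of the windows of Pvalb (2), Lhx6 (3), Nxph1, Gad1 and Gad2.

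The pools differed in how many members they held and how deeply these were sequenced. Control-Vehicle held 282 members, Stress-Vehicle 82, Control-PLX5622 38, Stress-PLX5622 33, Con-IL-1R1+/+ 272, Stress-IL-1R1+/+ 211, Con-nIL-1R1-/- 307 and Stress-nIL-1R1-/- 202. In the same order the median member had 5977.5, 3970.5, 2595, 3409, 5500.5, 5426, 7416 and 5313 UMIs. The PLX5622 pools were the smallest and held 126104 and 129452 UMIs in all, against 3335205 in Con-nIL-1R1-/-. Values from the PLX5622 pools therefore rest on few counts.

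As a share of Gad nuclei, the members made up 51.0% in Control-Vehicle and 34.0% in Stress-Vehicle, and 37.3% in Control-PLX5622 and 28.2% in Stress-PLX5622. In the genotype experiment the share was 43.8% (Con-IL-1R1+/+) and 44.0% (Stress-IL-1R1+/+), and 52.0% in Con-nIL-1R1-/- and 47.4% in Stress-nIL-1R1-/-. The control and stress pools overlapped. The share was lower under stress in 3 of 4 pairs, with a mean difference of -7.62 percentage points (SD 7.28), which did not pass a two-sided exact permutation test over the pairs (p = 0.25). With 4 pairs this test cannot give less than 0.125. When nuclei were thinned to 1000 UMIs, the share was lower in 4 of 4 pairs, by a mean of -6.26 points (SD 2.55, exact permutation test, p = 0.125, the smallest possible). When subclusters 4, 7, 11 and 12, described below, were not counted as members, the mean difference was 0.770 points (exact permutation test, p = 0.875). Their nuclei stayed among the Gad nuclei that the share is taken of. The share with them left out of both counts is not given here, so no conclusion is drawn from the change of sign.

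**Figure D1:**
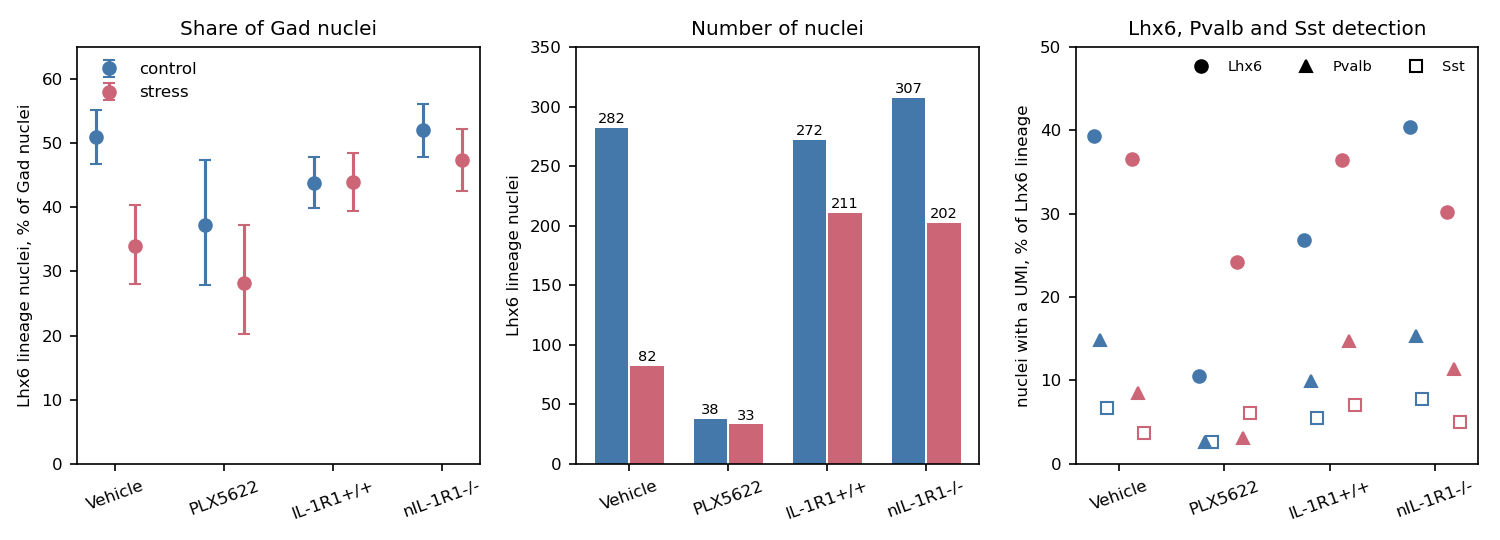
Members in each pool, as a percent of Gad nuclei with exact 95% binomial intervals (left), as a number of nuclei (middle) and as the percent of members with a UMI of Lhx6 (circles), Pvalb (triangles) or Sst (open squares) (right), with control pools in blue and stress pools in red. The share is 51.0% and 34.0% in the Vehicle pair and 43.8% and 44.0% in the IL-1R1+/+ pair, and an Lhx6 UMI is found in 10.5% to 40.4% of members.

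Within the members, Lhx6 ranged from 39.6 CPM in Control-PLX5622 to 114 CPM in Stress-Vehicle, and it was detected in 10.5% to 40.4% of the nuclei of a pool. Sst was at 10.3 CPM in Control-Vehicle, 7.61 in Stress-Vehicle, 15.9 in Control-PLX5622, 15.4 in Stress-PLX5622, 10.1 in Con-IL-1R1+/+, 12.5 in Stress-IL-1R1+/+, 9.89 in Con-nIL-1R1-/- and 7.83 in Stress-nIL-1R1-/-. Only 2 Sst UMIs stood behind each of the PLX5622 values. Pvalb was at 27.5, 20.3, 7.93, 7.72, 19.7, 28.3, 23.7 and 25.9 CPM in the same order, and each PLX5622 value was a single UMI. Control and stress pools overlapped for each of the 3 genes. Within pairs, Lhx6 was higher under stress in 4 of 4 and Pvalb in 2 of 4, which is a description because the rule used both genes.

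Il1r1, the gene deleted in glutamatergic neurons of nIL-1R1-/- mice, was sparse in the members. It lies at chr1:40264174-40356417 on the plus strand. There were 83 Il1r1 UMIs in 73 of 1427 members (5.12%), or 7.61 CPM (exact 95% Poisson interval 6.06 to 9.43, counting error only). Control-Vehicle had 5.13 CPM, Stress-Vehicle 20.3, Control-PLX5622 7.93, Con-IL-1R1+/+ 10.1, Stress-IL-1R1+/+ 7.90, Con-nIL-1R1-/- 6.90 and Stress-nIL-1R1-/- 6.27. Stress-PLX5622 had 0 UMIs, which allows up to 23.2 CPM. The members of both nIL-1R1-/- pools thus kept Il1r1 UMIs (23 and 8). In the Slc17a7 nuclei it was at 10.7 and 5.10 CPM in the IL-1R1+/+ control and stress pools, and at 3.84 and 0.986 CPM in Con-nIL-1R1-/- and Stress-nIL-1R1-/-. Over the 4 pairs Il1r1 in the members showed a stress difference of 0.24 on the log2 scale (SE 0.45, adjusted p = 0.951, edgeR's quasi-likelihood test with Benjamini-Hochberg adjustment, as everywhere below). Its share of nuclei was 5.16% in the Adarb2 lineage and 6.98% in the Slc17a7 nuclei, close to that of the members.

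Clustering of the members gave 13 subclusters, named below only where at least 3 of the listed markers of a subtype were present. Since the same counts made the clusters, their genes are a description. Subclusters 1, 8 and 10 were Pvalb-like. Subcluster 1 (244 nuclei, 17.1%) was led by Myo1e, Corin, Mybpc1, Lrrc38 and Ano1, with Pvalb at 50.4 CPM, Btbd11 at 1386 and the neuregulin receptor Erbb4 at 10540. Subcluster 8 (85 nuclei) was led by Qrfpr, Stk32a, Tac1, Cdk15 and Alkal2, with Pvalb at 44.7 CPM and Tac1, the gene of substance P, at 44.7 CPM. Subcluster 10 (46 nuclei) was led by Tll1, Pde3a, Il1rapl2, Kank4 and Tgfbr2, with Pvalb at 51.1 CPM and Il1rapl2 at 4236 CPM. Subcluster 6 (106 nuclei) was axo-axonic-like and led by Aox3, Zbtb7c, Egfl6, Unc5b and Itih5, with Pvalb at 65.1 CPM, Unc5b at 162, Vipr2 at 19.6 and Pthlh at 8.91.

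Sst cells fell into 3 further subclusters. Subcluster 3 (198 nuclei, Sst-like) was led by Npas1, Sst, Klhl14, Serpine2 and Gm28175, with Sst at 49.0 CPM, Elfn1 at 360, Grin3a at 699 and Reln at 1461. Its leading gene Npas1 is one of those the rule counts for the Adarb2 lineage. Subcluster 9 (80 nuclei, Sst-like) had Gm45356, Gm43154, Spon1 and Gm29683 among its leading genes, with Sst at 20.8 CPM and Npy at 29.1. Subcluster 13 (9 nuclei) was led by Ntn1, Nos1, Tacr1, L3mbtl4 and Ndst4 and was Sst Chodl-like, the type known for long-range projections. It held Chodl at 97.0 CPM, Sst at 97.0, Npy at 111 and Nos1 at 3047.

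Subcluster 2 (200 nuclei) was ivy and neurogliaform-like. It was led by Sema3c, Dchs2, B020031H02Rik, Vcan and Lamp5, with Nos1 at 316 CPM, Lamp5 at 60.4, Hapln1 at 132 and Egfr at 223. No Sst or Pvalb UMI was counted there (0 of 1076903 UMIs, which allows up to 2.79 CPM), while Lhx6 was at 111 CPM. Subcluster 5 (133 nuclei), led by Itgad, Ptger3, 4933430M04Rik, Stk32b and Gm12068, had Elfn1 at 428 CPM and Reln at 832 but Sst at only 5.55 CPM, and is called by its leading genes.

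Some nuclei went against the label. Subcluster 7 (102 nuclei) was led by Otx2os1, Lhx1os, Zfhx3, Lef1 and Gata3, and had Lhx6 at 5.64 CPM, Sox6 at 24.0, Gata3 at 64.9, Tal1 at 16.9 and Otx2 at 8.47. The last 3 are known from GABA neurons of the midbrain and thalamus. Con-IL-1R1+/+ gave 83.3% of subcluster 7, which made up 31.3% of that pool's members. It made up 3.19% of Control-Vehicle, 1.98% of Stress-nIL-1R1-/-, 0.948% of Stress-IL-1R1+/+, 0.651% of Con-nIL-1R1-/- and none of the other 3 pools. Subcluster 12 (16 nuclei) was led by Fign, Fam163a, Hs3st4, Grm3 and Megf11, with no Lhx6 UMI and Six3 at 74.7 CPM, and lay in Control-Vehicle (8 nuclei), Stress-IL-1R1+/+ (7 nuclei) and Stress-PLX5622. Subcluster 11 (18 nuclei) was led by C87487, Ndnf, Dock5, Kit and Egfr, had no Lhx6 UMI and held Adarb2 at 4159 CPM, the highest of the 13. Its 0 of 127181 UMIs allow up to 23.6 CPM of Lhx6, and the 0 of 80317 in subcluster 12 allow up to 37.4 CPM.

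Subcluster 4 (190 nuclei) had markers of several cell types and the highest median depth of the 13, at 8984 UMIs. It was led by Tnxb, Gm2164, 4921539H07Rik, 6530403H02Rik and Sv2b. Slc17a7 was at 33.0 CPM there against 12.7 or less elsewhere, and Mbp of oligodendrocytes at 211 against 91.1 or less. No doublet caller was run, so nuclei captured together may remain. Subclusters 4, 7, 11 and 12 are left out of the counts given beside the results below, which leaves 1101 members.

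**Figure D2:**
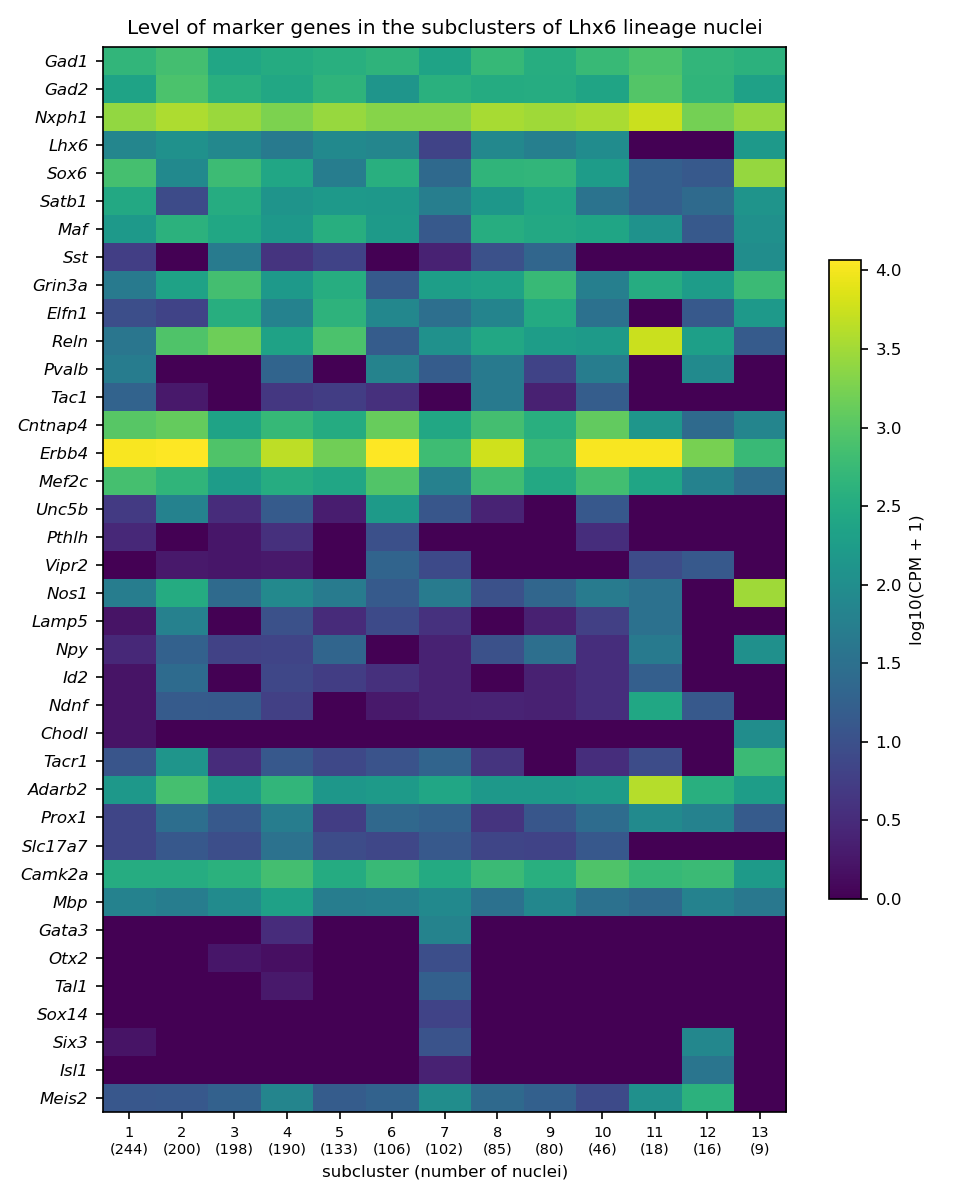
Level of marker genes (rows, log10 of CPM + 1) in the 13 subclusters (columns, with the number of nuclei). Nxph1 is high in every column, whereas Lhx6 is at 0 in subclusters 11 and 12 and at 5.64 CPM in subcluster 7, where Gata3, Tal1 and Otx2 stand.

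The make-up of the members varied between pools. Subcluster 4 held 17.7% of members in Control-Vehicle, 28.9% in Control-PLX5622, 11.03% in Con-IL-1R1+/+ and 15.3% in Con-nIL-1R1-/-, against 8.54%, 9.09%, 11.8% and 8.42% in their stress pools. The Sst-like subcluster 3 held 11.7%, 7.89%, 9.19% and 13.7% in the control pools and 18.3%, 9.09%, 17.5% and 19.8% in the stress pools, in the same order. Subcluster 3 and the Pvalb-like subcluster 10 were higher under stress in all 4 pairs, and subcluster 5 was lower in all 4. The Pvalb-like subcluster 1 held 12.4%, 15.8%, 9.93% and 17.9% in the control pools and 18.3%, 12.1%, 21.8% and 27.7% in the stress pools. Subcluster 2 held 14.9%, 18.4%, 15.1% and 17.6% in the control pools and 18.3%, 18.2%, 9.48% and 7.43% in the stress pools. These shares were not tested, because genes that lead several subclusters also differed between control and stress, and because a large subcluster 7 lowers every other share in Con-IL-1R1+/+.

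**Figure D3:**
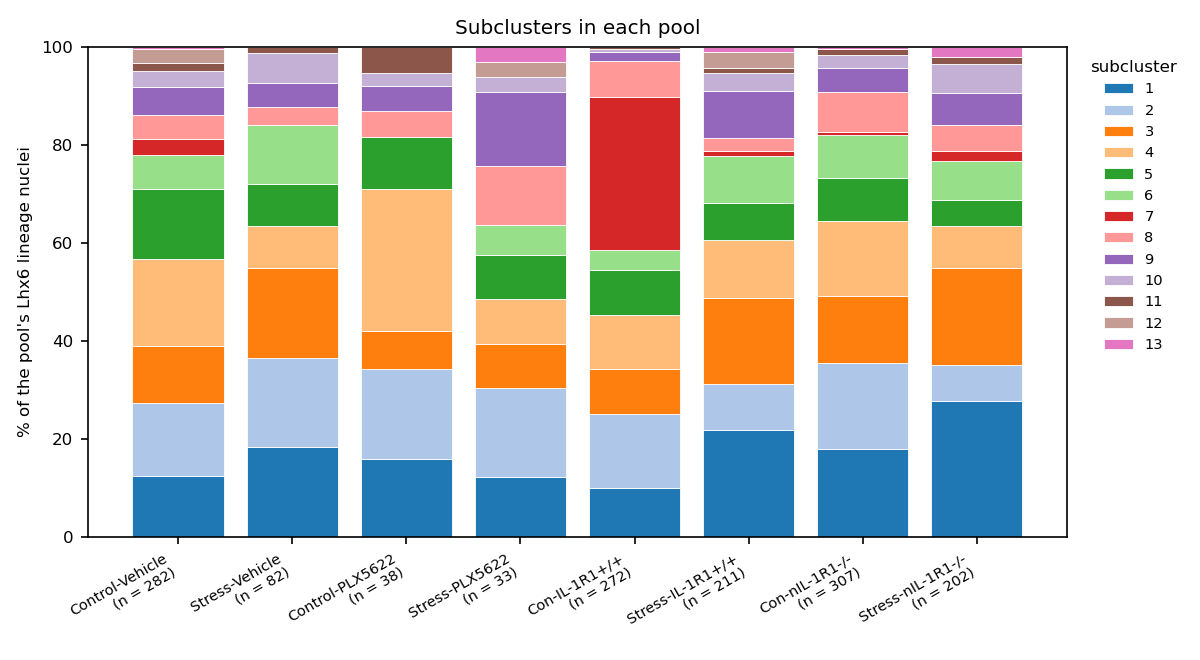
Percent of each pool's members in each of the 13 subclusters, with the number of members under each bar. Subcluster 7 (red) takes 31.3% of Con-IL-1R1+/+ and at most 3.19% of any other pool, and subcluster 4 (light orange) is largest in Control-PLX5622 at 28.9%.

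Levels were compared with those in the Adarb2 lineage. Of 3468 genes at 50 CPM or more in either class, 342 were higher in the members in all 8 pools and 357 were higher in the Adarb2 lineage in all 8 pools (together 20.2%). The rule separates the classes, so these values are not tested. Log2 ratios are of CPM + 1. Gna14, a G protein subunit, was at 52.3 CPM against 3.92 (log2 ratio 3.44, lowest in any pool 2.60). Genes were ranked by the ratio of the pool with the smallest difference. After Gna14 in this ranking came Nek7, Sox6, Il1rapl2, Tmem44, Fndc1, Utrn, Gm1604a, Satb1 and Kcns3. On the other side, Syt6, a synaptotagmin, was at 6.60 CPM in the members against 144, and Cnr1, the cannabinoid receptor typical of Cck basket cells, at 22.1 against 278 CPM. Ndnf, Igf1, Prox1, Cadps2, Stk32b, Sorcs3 and Kit were also among the leading genes on that side.

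Of 20 glutamate receptor subunits, 10 were higher and 10 lower in the members, 6 and 3 of them in all 8 pools. Gria1 was at 5643 CPM against 2479 (log2 ratio 1.19), Gria3 at 846 against 386 (1.13), Gria4 at 1813 against 984 (0.88) and Grik3 at 381 against 165 (1.20), each in all 8 pools. Grid1 was lower in all 8 pools. Of 20 channels of fast spiking, 10 were higher and 10 lower, 3 and 5 of them in all 8 pools. Kcnc2, a Kv3 potassium channel, was at 1908 CPM against 1033 (0.88) and Cacna1a, the P/Q calcium channel, at 1441 against 778 (0.89), both in 8 of 8 pools, while Kcnc1 (367 against 245 CPM) was higher in 7 of 8. Kcnq5 was lower at 491 against 1420 CPM (-1.53), and so were Kcnd3 and Kcnip1.

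Of 19 synapse organizers, 7 were higher and 12 lower. Cntnap4, which acts at the outputs of Pvalb cells, was at 697 CPM against 286 (1.28), and Elfn1, which shapes excitatory inputs of Sst cells, at 129 against 69.9 CPM (0.87). Crhbp, which binds corticotropin-releasing hormone, was at 29.0 against 2.31 CPM (3.18). The mineralocorticoid receptor Nr3c2 was lower at 426 against 762 CPM (-0.84), the glucocorticoid-induced Zbtb16 at 379 against 798 (-1.07) and the IL-1 receptor accessory protein Il1rap at 105 against 183 (-0.80), in all 8 pools each. Il1rapl2, a relative of that accessory protein at synapses, went the other way at 812 against 149 CPM (2.44).

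**Figure D4:**
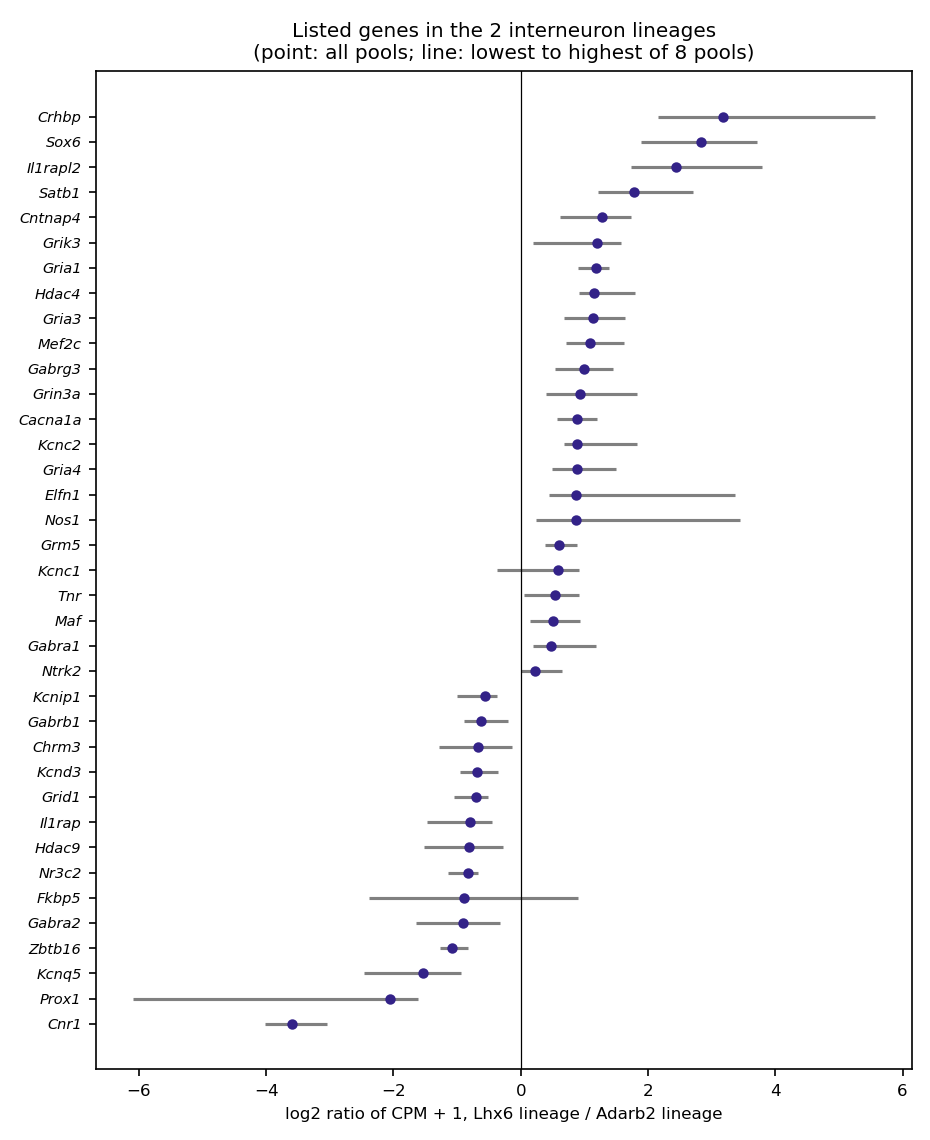
Log2 ratio of CPM + 1 between the Lhx6 and Adarb2 lineages for listed genes, with points over all nuclei and lines from the lowest to the highest of the 8 pools. Lines of Crhbp, Sox6, Il1rapl2 and Gria1 lie wholly to the right of 0, those of Cnr1, Kcnq5, Zbtb16 and Nr3c2 wholly to the left, and those of Kcnc1 and Fkbp5 cross it.

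After stress, more genes were lower than higher over all members, and the channel gene Trpc5 and the noradrenaline receptor gene Adra1a were among those that changed. Of 10792 genes tested, 11 were higher (0.102%) and 35 lower (0.324%) at an adjusted p under 0.05, with the pair as a block. Of these 46 genes, 40 moved the same way in all 4 pairs (9 higher and 31 lower). The test over these pairs had picked them, and the share of all genes that did so is not given, so this is a description. The balance turned in smaller sets, with 18 higher and 13 lower without subclusters 2, 4, 7, 11 and 12 and 7 higher and 3 lower in subcluster 1 alone. Of the 46 genes, 12 were among the calls of the first of these sets and 0 among those of subcluster 1. In the genotype pairs alone 34 of the 45 calls tested passed, and in the diet pairs alone 2 of 40 (Erdr1 and Ntng1). The median log2 difference over all genes tested was -0.00362. Over all genes, 178 (1.65%) were higher and 264 (2.45%) lower in every stress pool than in every control pool. The 4 sublibraries share the mice and are technical repeats. Averaged over the pairs other than PLX5622, 40 of the 46 moved the same way in all 4 sublibraries. The same counts had picked these genes, so this too is a description.

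Trpc5, a calcium-permeable channel on the X chromosome (chrX:143160611-143471176, minus strand), was among the most stable. It was at 238, 285, 229 and 316 CPM in the Control-Vehicle, Control-PLX5622, Con-IL-1R1+/+ and Con-nIL-1R1-/- pools and at 140, 92.7, 146 and 117 CPM in the matching stress pools. All 4 stress pools lay under all 4 control pools. Trpc5 fell by 1.03 on the log2 scale (SE 0.16, adjusted p = 0.00115). It was highest in the ivy and neurogliaform-like subcluster 2, at 940 CPM. Without subclusters 4, 7, 11 and 12 its difference was -1.34 (adjusted p = 2.95e-08), and without subcluster 2 as well it was -0.95 (adjusted p = 0.000201). It passed the threshold with each pair left out in turn.

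Ttn, which encodes the muscle protein titin (chr2:76534136-76812891, minus strand), showed the smallest p. It was at 94.2, 47.6, 67.7 and 73.2 CPM in the control pools, in the order above, and at 33.0, 15.4, 11.9 and 12.5 CPM in the stress pools, without overlap. Ttn fell by 2.23 on the log2 scale (SE 0.22, adjusted p = 2.89e-06). Without subclusters 4, 7, 11 and 12 it still fell, by 2.09 (adjusted p = 3.39e-06), and it too passed without each pair in turn. Subcluster 2 held 39.8% of its UMIs and subcluster 7 held 35.1%, and without subcluster 2 as well Ttn did not reach the filter on low counts and was not tested. Among members without a UMI of other cell types' markers its difference was -1.06 (adjusted p = 0.338), and after thinning to 1000 UMIs it was -1.54 (adjusted p = 0.261).

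Adra1a, the alpha-1A receptor for noradrenaline (chr14:66872700-67012152, plus strand), was higher after stress. It was at 104, 71.4, 103 and 133 CPM in the control pools and 200, 309, 184 and 166 CPM in the stress pools, without overlap. Adra1a rose by 0.79 on the log2 scale (SE 0.16, adjusted p = 0.0160), and by 0.70 without subclusters 4, 7, 11 and 12 (adjusted p = 0.00945). It did not pass without subcluster 7 alone (0.67, adjusted p = 0.0548), in members with an Lhx6 UMI and 5 lineage UMIs (0.72, adjusted p = 0.102) or after thinning to 1000 UMIs (0.20, adjusted p = 0.933). In the Adarb2 lineage of the same pools its difference was 0.98, and the difference between the lineages was -0.19 (SE 0.19, adjusted p = 0.981). Without the Vehicle, PLX5622 or IL-1R1+/+ pair, Adra1a in the members did not pass (adjusted p = 0.238, 0.0727 and 0.590), with differences of 0.74, 0.68 and 0.77.

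Erdr1, a gene of the pseudoautosomal region whose X and Y copies cannot be told apart by reads, was the highest-ranked of the genes that rose. It was at 19.6, 7.93, 6.06 and 8.99 CPM in the control pools and 78.7, 61.8, 31.6 and 23.5 CPM in the stress pools, a log2 difference of 1.92 (SE 0.26, adjusted p = 0.000406). The Control-PLX5622 value was a single UMI. Gm47283 rose by 1.05 (SE 0.18, adjusted p = 0.00464). Neither passed without the IL-1R1+/+ pair (Erdr1 1.76, adjusted p = 0.0567, and Gm47283 0.72, adjusted p = 0.609) or in members without a UMI of other cell types' markers (adjusted p = 0.0925 and 0.476). Also higher were the mitochondrial ribosomal RNAs mt-Rnr1 and mt-Rnr2, by 0.70 (adjusted p = 0.00943) and 0.64 (adjusted p = 0.0160). With a mitochondrial limit of 5%, which removes a single nucleus and keeps 1426 members, the latter 2 stood at 0.50 and 0.41 and did not pass (adjusted p = 0.172 and 0.463). Man1c1, a mannosidase of the Golgi, rose by 0.63 and the matrix gene Fndc1 by 0.78 (adjusted p = 0.0184 for both), but neither passed without subclusters 4, 7, 11 and 12 (adjusted p = 0.229 and 0.0796). Kifc2, a kinesin of dendrites, rose by 0.65 (adjusted p = 0.0366), although its control and stress pools overlapped.

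Ntn1, the guidance cue netrin 1, was at 5.59, 0, 5.56 and 4.80 CPM in the control pools and 7.61, 46.3, 12.5 and 30.6 CPM in the stress pools. The 0 in Control-PLX5622 allows up to 23.8 CPM, and the 46.3 rests on 6 UMIs. It rose by 1.89 (SE 0.39, adjusted p = 0.0197). Subcluster 13, with 9 nuclei, held 44.3% of all Ntn1 UMIs of the members. It did not pass without the PLX5622, IL-1R1+/+ or nIL-1R1-/- pair (adjusted p = 0.0860, 0.212 and 0.491). Rn7sk, a nuclear RNA that restrains transcription elongation, rose by 1.08 (adjusted p = 0.0121), higher in 3 of 4 pairs. Sema3a, another guidance cue, was the other of the 11 and is named after its values were seen.

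**Figure D5:**
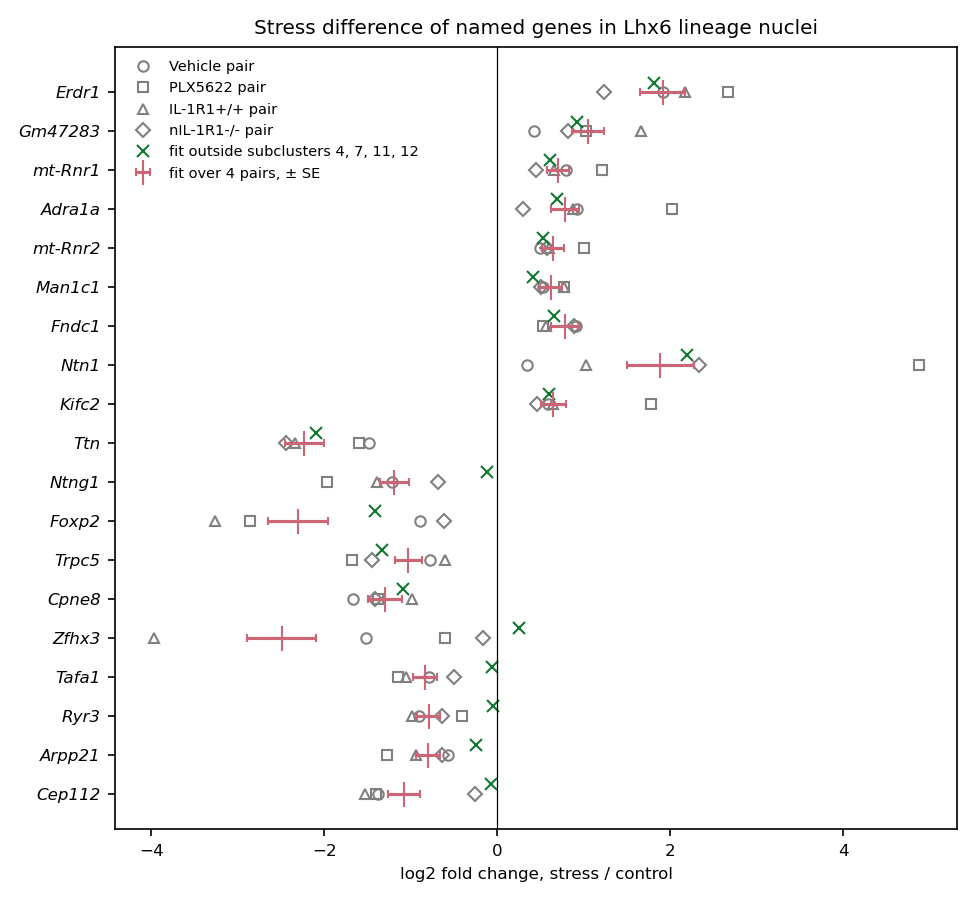
Stress difference (log2) of the genes named by rank, for each pair (open symbols), over 4 pairs (red, ± SE) and without subclusters 4, 7, 11 and 12 (green crosses). Ttn, Trpc5, Cpne8 and Foxp2 keep green crosses left of -1, whereas those of Ntng1, Tafa1, Ryr3, Arpp21 and Cep112 lie near 0 and that of Zfhx3 lies right of it.

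Many of the other genes that fell were high in a subcluster whose share differed between pools. Of the 35 lower genes, 14 had their highest CPM in subcluster 7, 7 in subcluster 4 and 5 in subcluster 2. The shares of all tested genes that were highest in these subclusters are not given here, so these counts are a description. Zfhx3, a transcription factor, was at 67.6, 79.3, 503 and 24.3 CPM in the control pools and 22.8, 54.1, 29.6 and 21.9 CPM in the stress pools, and 76.8% of its UMIs lay in subcluster 7. Its difference of -2.49 (adjusted p = 0.00214) turned to 0.26 (adjusted p = 0.970) without subclusters 4, 7, 11 and 12. Foxp2, a transcription factor of speech and motor circuits, was at 15.4, 63.4, 143 and 21.9 CPM in the control pools against 7.61, 7.72, 13.2 and 14.1, and fell by 2.30 (adjusted p = 0.00115). Without those subclusters it fell by 1.41 (adjusted p = 0.0407), but without the IL-1R1+/+ pair its difference was -0.996 (adjusted p = 0.808).

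Ntng1, a membrane-anchored netrin, fell by 1.19 (adjusted p = 0.000406) and stood at -0.12 (adjusted p = 0.976) without subclusters 4, 7, 11 and 12. The secreted Tafa1 (-0.83), the intracellular calcium channel Ryr3 (-0.79), Arpp21 (-0.80) and the centrosomal Cep112 (-1.07) passed in all members and stood at -0.05, -0.05, -0.24 and -0.07 without those subclusters, where none of them passed. Cpne8, a copine, fell by 1.29 (adjusted p = 0.00115) and by 1.09 without them (adjusted p = 0.00802), but stood at -0.68 (adjusted p = 0.856) without subcluster 2 as well. Of the 46 genes, 45 could be tested without subclusters 4, 7, 11 and 12, and 17 of these passed there in the same direction. In all 45 genes passed in that set, 17 higher and 28 lower. The sums of markers of midbrain and thalamic GABA neurons were 46.6, 55.5, 80.3 and 36.3 CPM in the control pools and 27.9, 15.5, 30.3 and 29.0 CPM in the stress pools. Meis2 was the most abundant of these 7 genes and none was at 0 over all pools; their part in the calls was not tested beyond leaving the subclusters out.

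Listed gene groups showed few calls after stress, and each is given beside the median of all genes, -0.00362, and the calls over all genes (0.102% higher and 0.324% lower). Of receptors for neuromodulators and neurotrophins, 15 of 19 were tested, Adra1a rose and the serotonin receptor Htr2c fell (-1.29, adjusted p = 0.0366), with a median of -0.11. Htr2c was lower in 3 of 4 pairs, and without subclusters 4, 7, 11 and 12 its difference was 0.19 (adjusted p = 0.973). Of the ivy and neurogliaform genes, 9 of 9 were tested and the calcium channel subunit Cacna2d1 fell (-0.81, adjusted p = 0.0154), from 434, 626, 425 and 530 CPM to 383, 224, 280 and 221 CPM, with a median of -0.15. Cacna2d1 had 50.2% of its UMIs in subcluster 2. Without subclusters 4, 7, 11 and 12 it stood at -1.06 (adjusted p = 3.30e-06), and without subcluster 2 as well at -0.31 (adjusted p = 0.907). Of the genes of dentate granule neurons, 4 of 7 were tested and Glis3 fell (-0.82, adjusted p = 0.0414). None of the 4 had a positive difference and 3 had an unadjusted p under 0.05, with a median of -0.60, and 54.5% of Glis3 UMIs lay in subcluster 4. Of RNA quality genes, 5 of 11 were tested and Rn7sk rose, with a median of 0.20.

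No gene passed in the other lists. Over all genes tested, 8.00% had an unadjusted p under 0.05 and 49.4% a positive difference. Of 14 GABA receptor subunits, 3 had a positive difference and 6 had an unadjusted p under 0.05, with a median of -0.30. Gabrb1 led them, at 526, 722, 556 and 473 CPM in the control pools and 332, 448, 396 and 402 in the stress pools (-0.50, SE 0.13, adjusted p = 0.0950), without overlap. Of 12 transcription factors of the medial eminence lineage tested, Lhx6 left out because the rule used it, 9 had a positive difference and 4 an unadjusted p under 0.05, with a median of 0.37. This is over all members, and values of the list without subclusters 4, 7, 11 and 12 are not given here. Subclusters 4 and 7 held on average 18.3% and 8.77% of members in control pools and 9.47% and 0.732% in stress pools. Their part in the median was not tested. Of 8 glucocorticoid genes tested, 6 were positive and 4 had an unadjusted p under 0.05, with a median of 0.19. Nr3c2 stood at 443, 460, 463 and 477 CPM in the control pools and 292, 216, 346 and 366 in the stress pools, without overlap (-0.54, SE 0.13, adjusted p = 0.0744). Zbtb16 stood at 496, 396, 277 and 294 CPM against 639, 448, 411 and 433 (0.45, adjusted p = 0.149). Without subclusters 4, 7, 11 and 12, Zbtb16 passed (0.51, adjusted p = 0.0411), whereas Gabrb1 and Nr3c2 were not among the genes that passed. Both were higher in the Slc17a7 nuclei, at 1025 and 1139 CPM against 477 and 426 in the members.

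Of 8 perineuronal net genes tested, 6 were positive and 4 had an unadjusted p under 0.05 (median 0.08), with Bcan at 0.63 (adjusted p = 0.0649) and Vcan at -0.78 (adjusted p = 0.0892). Vcan fell by 1.16 (adjusted p = 0.000659) and the link protein gene Hapln1 by 1.22 (adjusted p = 0.0407) without subclusters 4, 7, 11 and 12. Vcan leads subcluster 2 and Hapln1 is listed for its subtype, and without it as well Vcan stood at 0.20 (adjusted p = 0.995) and Hapln1 was not tested. Medians were -0.09 for 19 glutamate receptor subunits, 0.09 for 19 channels of fast spiking and -0.04 for 19 synapse organizers. Rule genes left out, they were -0.06 for 7 genes of GABA synthesis and uptake, 0.20 for 7 neuropeptide genes and -0.02 for 8 activity-regulated genes. Among synapse organizers, Nlgn1 had the smallest p (-0.54, adjusted p = 0.0660), from 2262, 2926, 2724 and 2419 CPM to 1756, 1761, 1902 and 1692, without overlap. Nlgn1 was not among the genes that passed without subclusters 4, 7, 11 and 12. It stood at 4112 CPM in the Slc17a7 nuclei against 2260 in the members. Of 18 IL-1 family genes and adaptors only 7 passed the filter on low counts (median 0.11), and Il1rap was the one with the smallest p (-0.55, adjusted p = 0.149). Circadian genes (12 tested, median 0.000562), chromatin modifiers (20, median -0.01) and chaperones (8, median 0.12) held no call. Subtype lists held no further call either, with medians, rule genes left out, of 0.02 for 6 Sst genes, 0.17 for 6 Pvalb genes and 0.20 for 3 Sst Chodl genes, and with Unc5b alone tested of the axo-axonic genes.

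Markers of other cell types were also counted in the members. Oligodendrocyte markers summed to 252 CPM over all members (Mbp highest at 92.3), astrocyte markers to 98.8 (Slc1a2), microglial markers to 15.9 (Inpp5d) and endothelial markers to 10.8 (Flt1). Markers of excitatory neurons summed to 523 CPM, of which Camk2a made 482, and ranged from 444 CPM in Stress-nIL-1R1-/- to 771 in Stress-Vehicle. Those of medium spiny neurons summed to 98.9 CPM (Rarb), of Cajal-Retzius neurons to 942 (Reln, which Sst cells also express), and of septal and pallidal neurons to 3.39 (Zic1). Markers of dentate granule neurons summed to 266 CPM (Rfx3 highest at 179.6, none of 7 at 0), with 269.9, 285, 293 and 301 CPM in the control pools and 185, 178, 202 and 237 in the stress pools. Those of oligodendrocyte precursors summed to 79.5 CPM (Vcan highest), with 79.2, 79.3, 74.7 and 108 against 58.4, 23.2, 64.5 and 43.1. In both lists, and in that of midbrain and thalamic GABA neurons above, every stress pool lay under every control pool. The sums of the other lists overlapped between control and stress pools. Vcan made 68.8 CPM of the precursor sum and is a leading gene of subcluster 2, which held 58.9% of its UMIs. The part of these lists in the stress calls was not tested. Markers of the caudal eminence summed to 409 CPM, of which Adarb2 made 332, with Sp8 at 0. Glis3 apart, no gene of these lists passed the stress test, and none of 6 microglial or 5 septal genes reached the filter on low counts.

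The stress response was next compared between the lineages, in a model over both with each pool as a block. The same pools gave both classes, and 11107 genes were tested. The difference between the lineages passed for 15 genes, 4 of which had the higher log2 change in the members (0.0360%) and 11 the lower (0.0990%). Trpc5 differed most by p (-1.07, SE 0.17, adjusted p = 0.00212), with a change of -1.03 in the members and 0.06 in the Adarb2 lineage. Vcan, the matrix proteoglycan versican and a leading gene of subcluster 2, followed (-1.28, SE 0.21, adjusted p = 0.00394), with -0.78 and 0.52. Foxp2 (-2.24, adjusted p = 0.00490), the synaptic vesicle protein Sv2c (-1.29, adjusted p = 0.0107) and A830019P07Rik (-1.90, adjusted p = 0.0156) also had the lower change in the members.

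Slit2, a guidance cue, had the higher change in the members (1.26, SE 0.23, adjusted p = 0.0106). Its own change there was -0.07 against -1.25 in the Adarb2 lineage. Il1rapl2 (1.05, adjusted p = 0.0221) changed by 0.11 and -0.84, Fras1 (1.15, adjusted p = 0.0221) by 0.29 and -0.95, and Bcan (1.31, adjusted p = 0.0224), the net proteoglycan brevican, by 0.63 and -0.75. Ttn, by contrast, changed by -2.23 and -0.56, a difference that did not pass (-1.56, SE 0.53, adjusted p = 0.434). Without subclusters 4, 7, 11 and 12, 10 of the 15 passed, and Foxp2 (adjusted p = 0.360), Sv2c (adjusted p = 0.0732) and Il1rapl2 (adjusted p = 0.0947) did not. Without the PLX5622 pair none of the 15 passed. Without the IL-1R1+/+ pair only Trpc5 and Vcan of the 15 did, and without the nIL-1R1-/- pair only Foxp2 and Fras1 (Trpc5 adjusted p = 0.195, Vcan 0.277), so these differences rest on few pools.

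PLX5622 was compared with vehicle over 2 pools a side within the same fit, in which each diet or genotype is exactly 1 pair. Diet and pair cannot be told apart, and the test takes the 2 pools of a pair as independent although their deviations correlated (0.221 and 0.119 in the Vehicle and PLX5622 pairs), so its p-values may be too small, as may those for genotype. By this test 2 genes were higher (0.0185%) and 2 lower (0.0185%). Banf2, of the barrier-to-autointegration family, was at 128 and 91.3 CPM in Control-Vehicle and Stress-Vehicle and at 547 and 185 CPM in Control-PLX5622 and Stress-PLX5622, a rise of 1.64 (SE 0.29, adjusted p = 0.0206). Mmel1, a membrane peptidase, was at 12.6 and 40.6 against 238 and 61.8 CPM (2.99, SE 0.54, adjusted p = 0.0206). The PLX5622 values of Mmel1 came from 30 and 8 UMIs. Gfra1, a receptor subunit for GDNF, was at 142 and 145 against 31.7 and 23.2 CPM (-2.41, SE 0.42) and Zfp804a at 441 and 411 against 174 and 162 CPM (-1.42, SE 0.25), with an adjusted p of 0.0206 for both. The lower Gfra1 values rest on 4 and 3 UMIs. In each of these 4 genes the PLX5622 pools lay apart from the vehicle pools. The test had picked these genes and the share of all genes separated in this way is not given here, so no conclusion is drawn from it. Gfra1 is among the 10 leading genes of the axo-axonic-like subcluster 6, which had 0 and 2 nuclei in the PLX5622 pools against 20 and 10 in the vehicle pools. After thinning to 1000 UMIs or without members carrying markers of other cell types, no gene passed. Gfra1 and Mmel1 also did not pass with DESeq2 (adjusted p = 0.158 and 0.212) or in members with an Lhx6 UMI and 5 lineage UMIs (adjusted p = 0.292 and 0.182), where of the 4 only Zfp804a did. Among these members 1 gene was higher and 20 lower, with a median log2 difference of -0.5 over all genes tested. Without subclusters 2, 4, 7, 11 and 12, 5 genes were higher and 16 lower.

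Between genotypes, 0 genes were higher and 12 lower (0.111%) in nIL-1R1-/- than in IL-1R1+/+ pools, with 359 at an unadjusted p under 0.05. These included Zfhx3 (-3.28, adjusted p = 0.000739), Zfhx4 (-2.45), Cep112 (-1.36), Foxp2 (-2.002) and Htr2c (-1.77). All of these were at their highest in Con-IL-1R1+/+, the pool with most of subcluster 7. Without subcluster 7 the count was 0 (251 at an unadjusted p under 0.05), and a DESeq2 Wald test on all members also gave 0 (65 at an unadjusted p under 0.05). Without subcluster 7, 11 of the 12 genes could be tested and all 11 kept their direction, with Zfhx3 at -0.45, Zfhx4 at -0.96, Cep112 at -0.40, Foxp2 at -0.56 and Htr2c at -0.24 (adjusted p = 1.000 for each). Tmem181b-ps, a pseudogene whose reads may be shared with related genes, was another of the 12 and is named after its values were seen. It stood at -1.03 in all members (adjusted p = 0.0179), and without subclusters 4, 7, 11 and 12 it also fell by 1.03 (adjusted p = 0.0168). In that set 3 genes passed, the others being Ttn (1.63, adjusted p = 0.0168) and Cdh7 (1.16, adjusted p = 0.0440), both higher in nIL-1R1-/-.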

How the data were processed

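The deposited files were 8 gene-by-nucleus matrices of raw UMI counts from split-pool (Parse) libraries, 1 per pool, each over the 4 sublibraries. Per the labels and the study's methods, the authors aligned reads to mm39 with the Parse pipeline. Seurat 4.1.1 is in the submitters' processing notes, and the annotation release is not given in the sources used here. Of 56748 gene identifiers, 2693 had no symbol, and 56017 were in GENCODE vM39, which gave the mm39 positions. Pools were read from the nucleus tables, and 3171 barcodes recurred in another sublibrary (2 among members), where they mark other nuclei. Promoters are from RefSeq (GRCm38.p6).

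UMI counts of the members were summed per pool and tested with edgeR 4.0.16 in R 4.3.3 (TMM, filterByExpr, quasi-likelihood, Benjamini-Hochberg threshold 0.05). The pair was a block, because the labels set a stress and a control pool side by side for every diet and genotype. Deviations within pairs correlated at 0.221, 0.119, 0.184 and 0.189 over 4116 genes. The fit without the block called 5 genes after stress. Subclusters came from scanpy 1.11.5 (2000 variable genes, 20 principal components, 15 neighbours, Leiden resolution 0.5). On data simulated for the stress comparison, the test recovered 60.1% of 188 genes changed by 2 times (10274 genes) and 94.2% of 189 changed by 4 times (10295 genes).

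Just inside and outside the rule, 65 members had 3 lineage UMIs and 65 Gad nuclei had 2. For the Gad rule, 355 members had 2 UMIs and 321 nuclei had 1, and 210 fell under the density limit. A further 54 failed only the limit on Drd1, Drd2 and Rgs9.

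Named genes were Il1r1 and the rule genes, the 10 genes in each direction with the smallest p that passed and moved alike in all 4 pairs (stress), the 5 in each direction for the other tests, the 10 in each direction for the lineages, the 5 leading genes of each subcluster, and up to 4 genes that passed (or otherwise the 2 with the smallest p) in each list. Some genes that this rule would name are not reported here. The members, lists and tests were chosen with earlier results of these data known. Alternatives covered the normalization, filter, tool, depth, rule, mitochondrial limit, block and left-out pairs, and sets without subclusters were added after seeing the data. The intervals cover counting error only.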

Additional observations from a re-analysis of the deposited data

Results flagged for a closer look

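In 80 groups of 4 pools examined, 7 had a pool apart from the other 3, where chance gives about 5% (1 in 20). Sst was at 15.9 CPM in Control-PLX5622, from 2 UMIs. Subcluster 7 held 31.3% of the members of Con-IL-1R1+/+ and subcluster 12 held 2.84% of those of Control-Vehicle, each against the other control pools. Zfhx3 at 503 CPM and Cep112 at 361 CPM stood apart in Con-IL-1R1+/+, and both were highest in subcluster 7. Ntn1 was at 0 CPM in Control-PLX5622, and Ttn at 33.0 CPM in Stress-Vehicle, the highest of the stress pools.

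The stress response differed between the Lhx6 and Adarb2 lineages (edgeR, adjusted p under 0.05 over 11107 genes) by 1.26 for Slit2, 1.05 for Il1rapl2, 1.15 for Fras1 and 1.31 for Bcan on the log2 scale. It differed by -1.07 for Trpc5, -1.28 for Vcan, -2.24 for Foxp2, -1.29 for Sv2c and -1.90 for A830019P07Rik. The causes were not tested.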

How the results depend on the processing

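The 46 calls after stress became 29 with DESeq2 (21 of the 29 main calls that it gave an adjusted p), 14 after thinning to 1000 UMIs, 26 in members with an Lhx6 UMI and 5 lineage UMIs, 22 without subcluster 7, 10 in subcluster 1 alone, 7 in the diet pairs alone, 63 in the genotype pairs alone, 5 with no replicate block and 109 with no filter on low counts. Leaving out a pair gave 4 (IL-1R1+/+), 15 (Vehicle), 26 (PLX5622) and 57 (nIL-1R1-/-), and the 4 were Cadps2, Gm2164, Trpc5 and Ttn. Without subclusters 2, 4, 7, 11 and 12 the count was 31, with 12 of the 46 among them. Of the 46, 6 were among the 14 after thinning, 16 among the 26 with an Lhx6 UMI and 0 among the 10 in subcluster 1. The 4 calls of PLX5622 became 9 in the diet pools alone, 10 without subclusters 4, 7, 11 and 12, 21 without subcluster 2 as well, 21 with an Lhx6 UMI, 8 with no filter on low counts, and 0 after thinning (234 at an unadjusted p under 0.05) or without markers of other types (453). The 12 genotype calls became 21 in the genotype pools alone, 34 with no filter, 7 after thinning, 3 without subclusters 4, 7, 11 and 12 (also without 2), 1 with an Lhx6 UMI, and 0 with DESeq2 or without subcluster 7. The 15 differences between lineages became 0 to 93 when a pair was left out. The change in the share of Gad nuclei ran from -10.2 to -4.50 points when a pair was left out. It stood at 0.770 when subclusters 4, 7, 11 and 12 were not counted as members but stayed among the Gad nuclei. Shares with a UMI fell to 1.34% (Sst) and 2.12% (Pvalb) after thinning. Of the 46 stress calls, 7 of 33 tested turned in subcluster 1 alone, among them the named Tafa1 (0.17), Ryr3 (0.079), Htr2c (0.32) and Cacna2d1 (0.38). Without subclusters 4, 7, 11 and 12, 4 of 45 turned (Htr2c, Kcnip4, Zfhx3 and Zfhx4). Of these, Zfhx3 (0.26) and Htr2c (0.19) were named for stress, and without subcluster 2 as well these 2 stood at 0.053 and 0.53. By genotype the named genes that turned in these 2 sets were Zfhx3 (0.29 and 0.63) and Zfhx4 (0.00651 and 0.035), and in the second for Htr2c (0.10). The cause was not tested, other than that smaller sets test fewer nuclei. Over the 23 genes named for stress and their alternatives, 212 values kept direction and call, 172 kept direction only and 8 turned.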
